A study of Mus musculus with 18 samples.

Results

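Treated tumors, lung tumors of B6C3F1/N mice exposed to antimony trioxide aerosol, were compared with spontaneous tumors, which arose in lungs without that exposure. All mice were of this hybrid strain, with no engineered allele named in the labels. They entered inhalation chambers at 5 to 6 weeks of age, with 60 mice of each sex at each air concentration (3, 10 and 30 mg/m3, and 0 for the controls), and breathed the aerosol 6 hours and 12 minutes a day on 5 days a week for up to 105 weeks. A tumor was cut away from the lung around it and frozen, and its RNA was read on an Affymetrix array. The labels give each array a group and a replicate number, but not the animal, its sex, or the concentration a treated mouse had breathed, and the series title calls the tumors alveolar and bronchiolar carcinomas. No label says that 2 tumors came from 2 mice, so a p-value here measures only the spread between samples. The comparison used 10 arrays of the 18, namely treated tumors 1 to 6 and spontaneous tumors 1 to 4, and covered all 18193 genes with a probe set that carries 1 gene symbol. Normal lung of vehicle control mice, 5 arrays, gave the background level of each gene.

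Antimony trioxide is a metalloid oxide used as a flame retardant and deposits in the lung as poorly soluble particles. Mouse alveolar and bronchiolar tumors keep much of the expression of alveolar type 2 cells, which make surfactant, and their growth commonly runs through the RAS, RAF, MEK and ERK kinases. Cells answer electrophiles and metalloids through the factor NRF2, which raises glutathione synthesis and the transferases that couple glutathione to foreign compounds.

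Spontaneous tumors 5 and 6 and control 5 were poor arrays, with a median correlation with the other arrays of 0.301 to 0.476 against 0.92 to 0.973 for the other 15, and were left out. Surfactant protein C, Sftpc, which defines alveolar type 2 cells, read 14.14 to 14.36 (log2) on the 10 tumor arrays and 14.01 to 14.29 in control lung. Xist, the RNA that silences 1 X chromosome in female cells, read 8.18 in treated tumor 4 and 4.46 to 5.91 in the other 9 tumors, and Y-linked genes were read in all 10 (mean log2 level of at least 8.60). Spontaneous tumor 1 stood apart from the other spontaneous tumors in several of the genes below, and values without it are given where they matter.

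No gene passed an adjusted p of 0.05. In the limma fit over the 10 tumors, 0 of 18193 genes were called (0% of those tested), and the smallest adjusted p was 0.111. At an unadjusted p under 0.05 there were 1272 genes (6.99%), 629 of them higher in treated tumors (3.46%) and 643 lower (3.53%). All treated tumors lay above or below all spontaneous tumors in 297 genes (1.63%). The group means differed by at least 2-fold in 250 genes (1.37%), and both held for 34 (0.187%). The exact 2-sided permutation test over the 210 assignments of arrays to groups called 0 genes, with 1189 at an unadjusted p under 0.05. Its p cannot fall below 0.00476, a value that 144 genes reached, and its smallest adjusted p was 0.602. With this floor a call was hardly possible, so its count of 0 says little about single genes. A log2 fold change, here always treated minus spontaneous tumor on the RMA scale, had a median standard error of 0.17. For 15872 genes (87.2%) its 95% interval lay within -1 and 1, which means that a difference of more than 2-fold between the groups was outside the interval for these genes. The count was small but not fixed at 0. Without spontaneous tumor 1 it was 3 (Chia1, Pigr and Retnla), and without spontaneous tumor 3 it was 1 (Tshr). Without treated tumor 5 it was 1 (Abca5), and it stayed at 0 without each of the other 7. In each gene named, the tumor left out was the one nearest the other group, so leaving it out favoured a call. When the 5 control arrays were added to estimate the spread between arrays, the same comparison called 10 genes (0.055%). These were Sugct, Abca5, Fxyd3, Scaf8, Prxl2a and Sat2, higher in treated tumors, and Mical2, Tshr, Vps33b and Cox6a2, lower. Control lung varied less than the tumors, with a median standard deviation of 0.207 against 0.253 in treated and 0.242 in spontaneous tumors. The 10 calls thus rest in part on a spread that is not that of tumors.

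The genes with the smallest p differed by 1.63-fold to 5.73-fold between the groups, and none of their groups overlapped. Fxyd3, which encodes a small regulator of the sodium pump, had the largest difference among the 5 on the higher side. It ran from 6.81 through a median of 8.19 to 9.23 in treated tumors and read 5.17, 5.67, 5.39 and 6.38 in spontaneous tumors 1 to 4. Control lung read 6.85 to 8.07, so treated tumors were near the level of normal lung and spontaneous tumors were below it. The log2 fold change was 2.52 ± 0.42 (SE), with a limma adjusted p of 0.242. Sugct, a mitochondrial enzyme of glutarate metabolism, ran from 6.75 through 6.94 to 7.23 in treated tumors, against 5.61, 5.97, 5.74 and 6.05 in spontaneous tumors and 5.21 to 6.02 in control lung. Here it was the treated tumors that stood apart, by 1.12 ± 0.14 (limma adjusted p = 0.111), while spontaneous tumors were at the level of normal lung. A second Sugct probe set, of lower signal, differed by 0.07 ± 0.25.

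Abca5, a lysosomal transporter, ran from 8.94 through 9.62 to 9.80 in treated and read 8.56, 8.59, 8.39 and 8.30 in spontaneous tumors, a difference of 1.08 ± 0.17 (limma adjusted p = 0.213). Its control level was 9.62 to 10.05, and its second probe set differed by 0.97 ± 0.18. Treated tumor 5 was the lowest of its group, and without it the difference was 1.21 (limma adjusted p = 0.0217). Without spontaneous tumor 2 the difference was 1.13 (limma adjusted p = 0.796). Scaf8, which binds the tail of RNA polymerase II, differed by 0.71 ± 0.12, with treated tumors at 9.39 to 9.89 and spontaneous tumors at 8.70 to 9.11. Its 3 probe sets all lay above 0.

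Myh7, the slow myosin heavy chain of heart and slow muscle, ran from 12.62 through 12.98 to 13.53 in treated tumors and read 12.25, 11.72, 11.70 and 11.93 in spontaneous tumors, a difference of 1.10 ± 0.19 (limma adjusted p = 0.242). Both tumor groups were above control lung, at 9.48 to 10.53. Of the other heart genes, Myom2, a sarcomere protein also chosen after its values were seen, lay on the same side (1.74 ± 0.57), and its groups overlapped. Cardiac actin Actc1, chosen in the same way, read 3.79 to 4.70 in the 10 tumors and 9.59 to 11.21 in control lung, and the median log2 fold change of the 10 cardiac muscle genes was 0.08.

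On the lower side, Pigr had the largest difference of the 5. It encodes the receptor that carries IgA across epithelium into the airway. Treated tumors ran from 6.05 through 6.39 to 6.67, whereas spontaneous tumors read 7.07, 8.72, 8.93 and 8.82 and control lung read 8.40 to 10.68. The difference was -2.06 ± 0.33 (limma adjusted p = 0.213), and -2.50 without spontaneous tumor 1, where its adjusted p was 0.000342. Without spontaneous tumor 2 or 3 it was -1.95 or -1.88 (limma adjusted p = 0.796 or 0.689). The second Pigr probe set differed by -1.70 ± 0.32. All 10 tumors except spontaneous tumors 2, 3 and 4 were thus below the range of normal lung.

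For Tshr, the thyrotropin receptor, spontaneous tumors lay above normal lung and treated tumors at its level. Spontaneous tumors read 7.15, 7.40, 6.51 and 7.98, treated tumors ran from 5.59 through 5.70 to 5.95, and control lung read 5.61 to 5.90. The difference was -1.51 ± 0.23 (limma adjusted p = 0.213), and -1.76 without spontaneous tumor 3 (adjusted p = 0.0497). Without spontaneous tumor 2 it was -1.46 (limma adjusted p = 0.796). Tshr has 3 probe sets, and the one of middle signal differed most, by -2.83 ± 0.29. It was the single probe set of 34945 with an adjusted p under 0.05 (0.0334) when each was tested on its own. Mical2, an oxidase that takes actin filaments apart, read 10.99, 11.01, 10.93 and 11.00 in spontaneous and 10.14 to 10.52 in treated tumors, with a median of 10.22. Control lung, at 10.32 to 10.49, was close to the treated tumors, and the difference was -0.70 ± 0.11 (limma adjusted p = 0.213). Vps33b, a protein of endosome fusion, was above control lung (8.61 to 8.99) in both groups, at 9.18 to 10.34 in treated and 10.78 to 11.30 in spontaneous tumors, a difference of -1.36 ± 0.24. Trim5, of an antiviral family whose mouse members are close copies of each other, differed by -0.88 ± 0.14, with treated tumors at 5.94 to 6.45 and spontaneous tumors at 6.74 to 7.25. Cox6a2, the muscle isoform of a respiratory chain subunit, was chosen after its values were seen. It read 11.33, 11.35, 11.70 and 10.57 in spontaneous and 8.36 to 10.35 in treated tumors, against 7.82 to 8.58 in control lung (-1.93 ± 0.35).

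**Figure D1:**
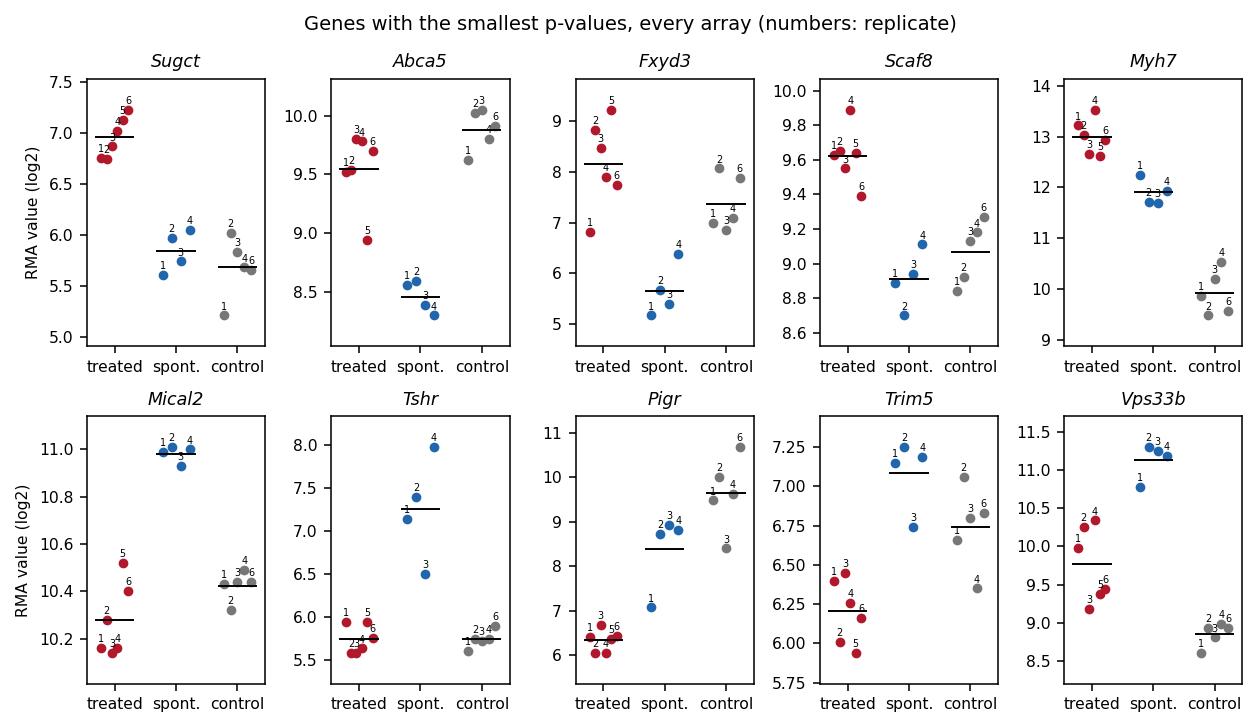
RMA values (log2, vertical axes, not starting at 0) of the 5 genes with the smallest p on each side, with treated tumors in red, spontaneous tumors in blue and control lung in grey; the small number at a point is the replicate and the line is the group mean. Treated tumors lie wholly above spontaneous tumors in the upper row and wholly below in the lower row, and control lung lies near treated tumors in Fxyd3 and Tshr but near spontaneous tumors in Sugct.

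Of 63 gene lists with 972 measured members, 0 members were called in the 10-tumor fit, and 51 lists had a median log2 fold change between -0.25 and 0.25, against -0.02 for all genes. The lists are described below by their counts and medians. Since the tumors are bulk tissue, fewer cells of a type and less RNA per cell cannot be told apart. The values of stromal and immune marker lists are given where they move with a result.

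Glutathione transferases, which couple glutathione to electrophiles, read higher in treated tumors on average. Of 15 measured, 12 lay above 0, the median was 0.60, and 6 were at an unadjusted p under 0.05 on the higher side, against 3.46% of all genes. Gsta4, which removes products of lipid peroxidation, was the member whose groups did not overlap. It ran from 12.44 through 12.63 to 12.96 in treated tumors and read 11.64, 12.13, 12.13 and 12.06 in spontaneous tumors, a difference of 0.68 ± 0.15 (limma adjusted p = 0.383). Control lung, at 11.52 to 12.49, spanned all 4 spontaneous tumors and reached the lowest treated ones. Gsto1, an omega-class transferase that can reduce methylated arsenic, had the largest difference of the 5 members with the smallest p, at 1.41 ± 0.56. Treated tumors 2, 3 and 5 read 11.88, 11.23 and 12.34, while the other 3 read 9.64 to 10.03, inside the spontaneous range of 8.55 to 10.28. Mgst3, Gsta3 and Gstm5 differed by 0.72 ± 0.24, 0.70 ± 0.25 and 1.01 ± 0.40, and the groups overlapped in all 3 genes. A second Mgst3 probe set, of low signal, differed by -0.07. Per tumor, the list lay highest in treated tumors 5 and 2, with a median deviation from the 10-tumor mean of 0.72 and 0.68. The other 4 treated tumors, at -0.24 to 0.06, lay within the spontaneous range of -0.44 to 0.10.

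The 21 other xenobiotic enzymes had a median of 0.19 (0.08 without spontaneous tumor 1, 0.33 without spontaneous tumor 2 and 0.31 without treated tumor 6), with 2 at an unadjusted p under 0.05 on each side. The members on the higher side were aldo-keto reductases, which reduce reactive aldehydes and ketones. Akr1c13 ran from 9.59 through 10.26 to 11.35 in treated tumors, against 9.53, 8.88, 9.20 and 9.64 in spontaneous tumors and 7.94 to 8.49 in control lung (1.00 ± 0.30). Akr1b8 ran from 9.95 through 11.05 to 11.52, against 9.50, 9.76, 10.01 and 10.29, with control lung at 8.15 to 9.09 (0.98 ± 0.30). The lowest treated tumor of each gene lay inside the spontaneous range, and all 10 tumors were above normal lung in both. Akr1c12, chosen after its values were seen, did not overlap between the groups (7.90 to 10.83 against 7.17 to 7.62, 1.5 ± 0.47), although probes may not tell apart the close copies of this gene cluster. Prxl2a, a thioredoxin-fold protein also chosen after its values were seen, read 11.03 to 12.17 in treated and 9.34 to 10.79 in spontaneous tumors (1.74 ± 0.31), with 1 of its 3 probe sets below 0. The members on the lower side were Ephx1 and Aldh1a7. Ephx1, the microsomal epoxide hydrolase, differed by -0.61 ± 0.20, with treated tumor 4 inside the spontaneous range. Aldh1a7, an aldehyde dehydrogenase, differed by -1.20 ± 0.47, with treated tumors 3 and 4 the lowest at 8.34 and 9.69.

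NRF2 target genes read highest in 4 of the 6 treated tumors. The 15 measured had a median log2 fold change of 0.43, with 12 above 0 and 2 at an unadjusted p under 0.05 on the higher side. Over all genes, 54.6% lay below 0 and 3.46% were at that p on the higher side. Gclm, the modifier subunit of the enzyme that limits glutathione synthesis, read 9.06, 9.13, 9.37 and 9.19 in treated tumors 2 to 5. Treated tumors 1 and 6 read 8.18 and 8.31, within the spontaneous range of 8.05 to 8.47, and control lung read 8.67 to 9.66. The difference was 0.62 ± 0.24 (limma adjusted p = 0.678). Gsr, which regenerates reduced glutathione, split in the same way, at 12.01 to 12.15 in treated tumors 2 to 5 against 11.34 and 11.30 in treated tumors 1 and 6 and 11.11 to 11.51 in spontaneous tumors (0.48 ± 0.20). The list median per tumor was likewise above 0 in treated tumors 2 to 5 and -0.44 and -0.35 in treated tumors 1 and 6. Metallothioneins and genes of metalloid handling, 15 measured, had a median of -0.01. Aqp9, a channel that also carries trivalent arsenic and antimony, differed by 0.67 ± 0.27 at a low level (5.55 to 6.93 in treated and 4.89 to 5.81 in spontaneous tumors), and Slc39a8, a zinc and cadmium importer, by -0.36 ± 0.15.

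The antioxidant response element searched for, TGACNNNGC on either strand, was in the 250 bases before the start of 3 of 13 glutathione transferase genes with a RefSeq promoter entry (23.1%) and of 2 of 12 NRF2 target genes (16.7%), against 11.5% of all 27025 genes with one. Both shares rest on few genes and were not tested.

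Among epithelial identity genes, the lists differed in how much they varied within a group. Alveolar type 2 genes, 17 measured, had a median log2 fold change of -0.07 and a median SD of 0.267 in treated and 0.268 in spontaneous tumors, close to that of all genes (0.253 and 0.242), whereas club cell genes had a median SD of 1.81 and 1.39. Napsa, the protease that processes surfactant protein B, was above control lung (8.57 to 10.65) in all tumors. It ran from 11.30 through 11.90 to 12.42 in treated tumors and read 12.84, 12.40, 12.81 and 12.22 in spontaneous tumors (-0.72 ± 0.23, limma adjusted p = 0.614). Nkx2-1, the factor that maintains lung identity, read 9.12 to 9.34 in 5 treated tumors, 9.98 in treated tumor 4 and 9.57 to 9.84 in spontaneous tumors (-0.35 ± 0.17). Hnf4a, a factor of gut and liver epithelium, read 9.17 in treated tumor 5 and 7.99 in treated tumor 2, against 6.29 to 6.77 in spontaneous tumors and 6.31 to 6.81 in control lung (0.93 ± 0.46). Its 3 other probe sets, of lower signal, differed by 2.21 to 2.73. Gkn2, a stomach lining protein, split the treated tumors. Treated tumors 2, 3, 5 and 6 read 11.47, 10.33, 12.51 and 11.04, whereas treated tumors 1 and 4 read 5.56 and 5.21. Spontaneous tumors read 8.67, 5.19, 4.32 and 6.95, and control lung read 4.09 to 4.52. The difference of 3.07 ± 1.53 (limma adjusted p = 0.738) thus came from 4 tumors of 6. Lgals4, an intestinal galectin, differed by 0.64 ± 0.28, and the 19 goblet and gastric genes had a median of 0.43, and of 0.16, 0.27, 0.22 and 0.28 without treated tumor 2, 3, 4 or 5.

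Club cell genes, which mark the secretory cells of the bronchioles, had a median of -0.54 over 10 genes, and -1.02, -0.08, -0.82 and -0.89 without spontaneous tumor 1, 2, 3 or 4 and -0.98 without treated tumor 5. Scgb1a1, the main club cell secretory protein, read 13.63, 13.18 and 13.23 in spontaneous tumors 2, 3 and 4, below the control level of 14.35 to 14.49, and 8.78 in spontaneous tumor 1. In treated tumors it ran from 8.17 through 9.0 to 13.34, with treated tumors 5 and 1 the highest. The difference was -2.39 ± 1.16, and -3.53 without spontaneous tumor 1. Cckar, the cholecystokinin receptor, also read low in spontaneous tumor 1, at 3.94 against 7.21, 8.15 and 9.13 in spontaneous tumors 2, 3 and 4, and was highest of the treated tumors in number 5, at 7.84 (-2.25 ± 1.10). Cbr2 and Cyp2f2, enzymes of club cells, had wide treated ranges (6.14 to 11.62 and 7.23 to 11.16) that reached the lower end of the spontaneous ones (10.26 to 13.75 and 11.15 to 12.06). Their differences were -2.99 ± 1.11 and -2.16 ± 0.81. Muc5b, an airway gel mucin, lay on the other side, highest at 10.86 and 11.94 in treated tumors 2 and 5 and 6.35 to 7.93 in spontaneous tumors (1.85 ± 0.94). Tppp3, a ciliated cell gene, differed by -0.65 ± 0.25. All 13 ciliated genes were higher in each control lung than in any tumor, as were 1388 of all 18193 genes.

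The 20 claudin and junction genes had a median log2 fold change of -0.08, with 12 below 0. Cldn4, a tight junction claudin, read higher in treated tumors. It ran from 5.97 through 7.82 to 8.87, with treated tumor 1 alone in the spontaneous range of 5.42, 4.83, 6.21 and 5.99, and control lung read 4.40 to 5.61. The difference was 2.10 ± 0.51 (limma adjusted p = 0.472). Epcam, a surface glycoprotein of epithelium, read 12.60 to 12.87 in treated tumors and 12.27, 12.06, 12.17 and 12.79 in spontaneous tumors (0.41 ± 0.14), and Grhl2, a factor that keeps epithelial junction genes active, differed by 0.25 ± 0.10. The chloride channel gene Cftr, in contrast, was low in every treated tumor, at 4.01 through 4.70 to 5.08. Spontaneous tumors 2, 3 and 4 read 8.32, 9.45 and 6.87, around the level of control lung (7.03 to 8.94), and spontaneous tumor 1 read 4.71. The difference was -2.72 ± 0.72, and -3.60 without spontaneous tumor 1. Slc26a4, the anion exchanger pendrin, read 9.88, 12.42, 10.20 and 12.62 in spontaneous tumors, 8.37 to 10.64 in treated tumors and 6.04 to 9.59 in control lung (-1.71 ± 0.61). The 17 epithelial ion and calcium transport genes had a median of -0.04, with 10 below 0.

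The imprinted Dlk1 and Meg3 locus holds a gene expressed from the paternal chromosome, Dlk1, which encodes a Notch-like protein of fetal tissue, and the maternally expressed RNAs Meg3, Rian and Mirg. Dlk1 had the largest log2 fold change of all 18193 genes, 4.26 ± 1.01, with a limma adjusted p of 0.472. Treated tumors ran from 9.68 through 12.42 to 13.06, while spontaneous tumors read 4.43, 10.62, 8.07 and 7.83 and control lung read 3.50 to 4.81. Spontaneous tumor 1 was thus at the control level and spontaneous tumor 2 reached into the treated range, and the log2 fold change was 3.16 and 5.22 without each of them. The second Dlk1 probe set differed by 1.80 ± 0.62. The maternal RNAs did not follow Dlk1. Meg3 read 12.54, 11.72 and 12.45 in spontaneous tumors 1, 3 and 4 and 7.03 in spontaneous tumor 2, and it read 11.72 to 12.71 in treated tumors except treated tumor 5, at 8.41 (control lung 6.87 to 7.35). Rian read 6.94 in spontaneous tumor 2 and 11.84 to 12.74 in the other 9 tumors, and Mirg 5.10 against 7.49 to 10.02. Spontaneous tumor 1 therefore had the maternal RNAs with Dlk1 at control level, and spontaneous tumor 2 had Dlk1 with the maternal RNAs at control level. Without spontaneous tumor 2 the differences of Meg3, Rian and Mirg were -0.69, -0.30 and -0.44, against 0.61, 1.07 and 0.64 with it, and other Meg3 probe sets lay on both sides of 0.

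**Figure D2:**
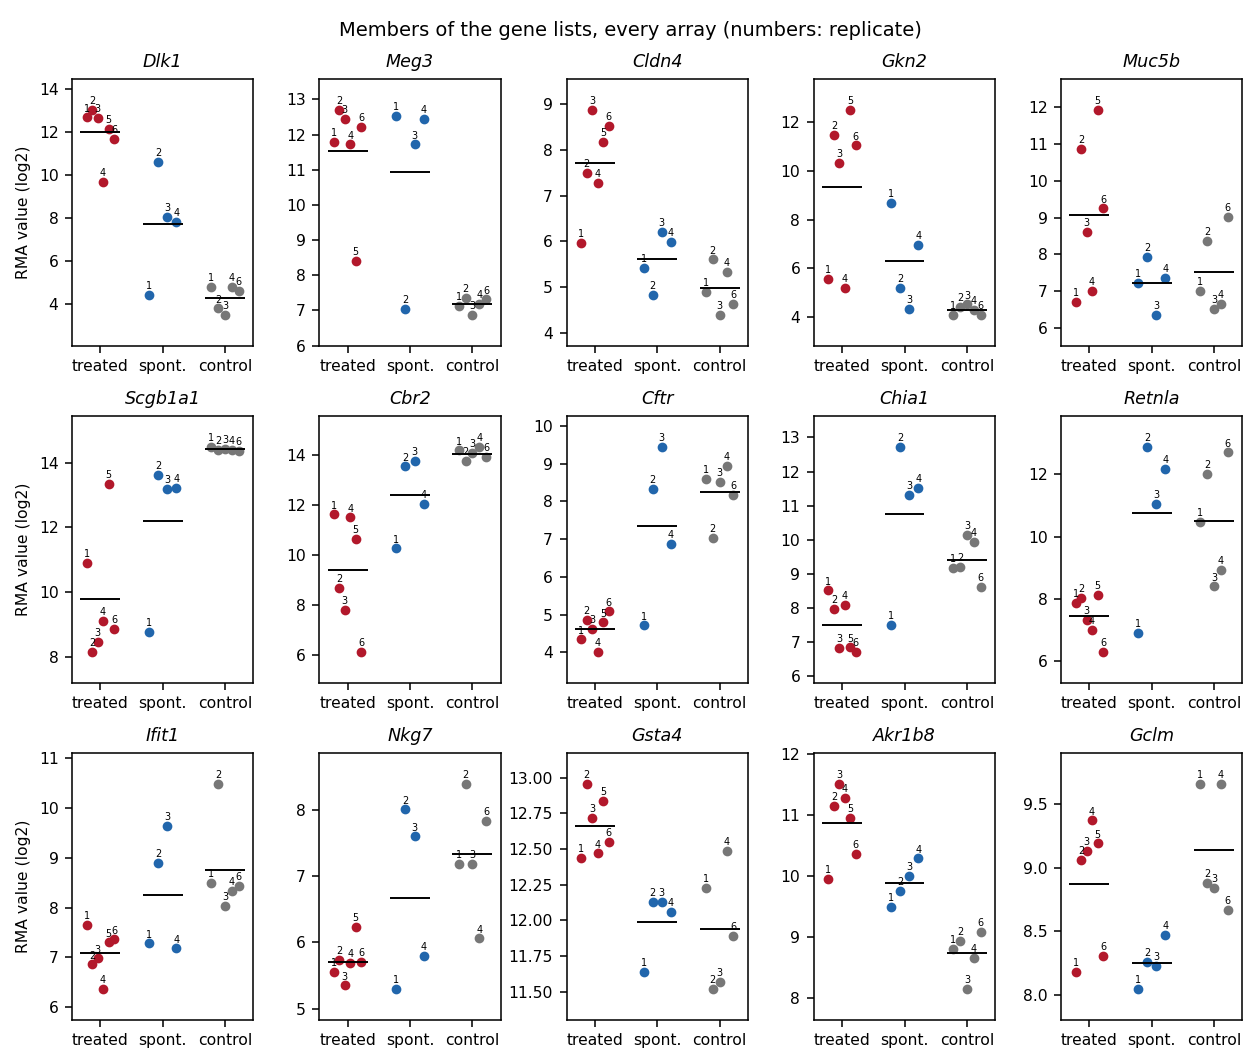
RMA values (log2, vertical axes, not starting at 0) of 15 members of the gene lists, with treated tumors in red, spontaneous tumors in blue and control lung in grey; the small number at a point is the replicate and the line is the group mean. Spontaneous tumor 1 lies with the treated tumors in Scgb1a1, Cftr, Chia1 and Retnla, treated tumors 1 and 4 lie apart in Gkn2, and treated tumors 1 and 6 lie with the spontaneous tumors in Gclm.

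Genes of the kinase pathway that drives such tumors gave small differences. The 13 measured genes of the RAS, RAF, MEK and ERK core had a median of 0.04 and none differed by more than 0.29 in size; Rasa1, which switches RAS off, differed by 0.24 ± 0.10 without overlap, and Sos1, which switches it on, by 0.29 ± 0.12, with 1 of its 5 probe sets below 0. The 19 genes of ERK output and feedback had a median of 0.06. Of these 19, 12 were higher in every tumor than in any control lung, as were 1886 of all 18193 genes. Myc, a growth factor-driven transcription factor, ran from 9.53 through 9.95 to 10.09 in treated tumors and read 9.34, 9.28, 9.31 and 9.51 in spontaneous tumors, without overlap (0.55 ± 0.13, limma adjusted p = 0.43). Control lung read 7.12 to 8.74. Ccnd1, the cyclin that opens the cell cycle, was on the other side, at 11.03 to 11.72 against 11.92, 11.91, 12.14 and 11.61 (-0.56 ± 0.16). Among 21 immediate early genes, Egr1 and Fos differed by 1.05 ± 0.34 and 1.12 ± 0.49, with spontaneous tumor 1 the lowest of all tumors in both, at 7.84 and 6.47. Without it their differences were 0.70 and 0.68, and the list median with it was 0.06. Of Wnt pathway genes, the feedback inhibitor Nkd1 differed by -1.04 ± 0.33 and the ligand Wnt5b by 0.58 ± 0.18. Nrarp, a feedback inhibitor of Notch, differed by -0.63 ± 0.19.

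Cell division genes read lower in treated tumors on average, with 23 of 24 below 0, 1 of them at an unadjusted p under 0.05 and a median of -0.58. Over all genes, 54.6% were below 0. Cdc20, which starts the separation of chromosomes, ran from 6.96 through 7.96 to 8.55 in treated tumors and read 9.19, 8.59, 8.18 and 8.69 in spontaneous tumors, against 6.43 to 8.12 in control lung (-0.76 ± 0.28). Mki67, a protein of dividing nuclei, read 8.67 in treated tumor 4 and 10.02 to 11.41 in the other treated tumors, against 12.04, 10.97, 10.42 and 11.70 (-0.92 ± 0.51). Plk1, Ube2c and Aurka had the same order (-0.55, -0.91 and -0.58). The list median per tumor ran from -1.20 in treated tumor 4 to 0.65 in treated tumor 6, and from -0.17 in spontaneous tumor 3 to 0.92 in spontaneous tumor 1, so that treated tumors 1 and 6 lay in the spontaneous range and the other 4 lay below every spontaneous tumor. The median was -0.34 without spontaneous tumor 1 and -0.38 without treated tumor 4.

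Of 16 targets of p53 and inhibitors of cyclin-dependent kinases, 5 were at an unadjusted p under 0.05 on the lower side, against 3.53% of all genes, and 1 on the higher side, with a list median of -0.16 (-0.25, -0.26 and -0.27 without spontaneous tumor 1, treated tumor 3 or treated tumor 4). Cdkn2c, an inhibitor of CDK4 and CDK6, did not overlap. It read 8.82, 9.02, 9.09 and 8.57 in spontaneous tumors and 8.42 to 9.28 in control lung, and it ran from 7.25 through 7.86 to 8.54 in treated tumors (-0.98 ± 0.28, limma adjusted p = 0.532). Ccng1, Bbc3, Aen and Zmat3, which p53 induces, differed by -0.41 ± 0.12, -0.38 ± 0.12, -0.46 ± 0.15 and -0.38 ± 0.15. Of DNA repair genes, Xpc, which recognises damage in nucleotide excision repair and is itself induced by p53, lay on the other side. It ran from 9.11 through 9.69 to 10.21 in treated tumors and read 8.67, 8.12, 8.91 and 8.71 in spontaneous tumors, with control lung at 7.95 to 8.32 (1.03 ± 0.23, limma adjusted p = 0.383). Fancd2, of crosslink repair, differed by -0.57 ± 0.20.

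Lipid synthesis genes differed in part. Of 18 fatty acid synthesis and lipid storage genes, 4 were at an unadjusted p under 0.05 on the lower side and 1 on the higher. Their median was -0.15. Of 18 cholesterol synthesis genes, 9 lay above 0 and 9 below, with a median of 0.05. At that p, 3 of them were higher and 2 lower. Over all genes, 3.46% were higher and 3.53% lower at that p. Fasn, the fatty acid synthase, read 11.96, 11.88, 12.00 and 11.70 in spontaneous tumors and 10.65 to 11.20 in 5 treated tumors, with treated tumor 4 at 11.82 (-0.74 ± 0.19, limma adjusted p = 0.472); control lung read 9.18 to 10.64. Acaca and Scd1, the steps before and after it, differed by -0.49 ± 0.22 and -0.36 ± 0.15. The elongases went in opposite directions, with Elovl1 at -1.01 ± 0.29 and Elovl6 at 1.05 ± 0.34, the latter without overlap. In the cholesterol pathway Pmvk differed by -0.82 ± 0.30 and Fdft1 by 0.46 ± 0.12, with probe sets of low signal on the other side.

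Genes of antigen presentation and the interferon response read high in spontaneous tumors 2 and 3. Interferons switch these genes on through an element bound by STAT and IRF factors, and the proteins block viral replication and load peptides on MHC molecules. The element searched for, GAAA, any 2 bases and GAAA again on either strand, was in the 250 bases before the start of 10 of 15 interferon response genes with a RefSeq promoter entry (66.7%), against 3.46% of all 27025 genes with one. The stretches of Ifit1 and Rsad2, the members with the smallest p that hold it, are shown from RefSeq GRCm38.p6 on the gene's own strand, with the matches, here on the opposite strand, in capitals. They lie at chr19:34640639-34640888 (plus strand) and chr12:26456453-26456702 (minus strand).
Ifit1: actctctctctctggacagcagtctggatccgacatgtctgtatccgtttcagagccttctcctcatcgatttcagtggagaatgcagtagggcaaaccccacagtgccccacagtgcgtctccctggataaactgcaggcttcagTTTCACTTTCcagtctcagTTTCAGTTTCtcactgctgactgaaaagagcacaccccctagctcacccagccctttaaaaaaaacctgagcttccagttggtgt
Rsad2: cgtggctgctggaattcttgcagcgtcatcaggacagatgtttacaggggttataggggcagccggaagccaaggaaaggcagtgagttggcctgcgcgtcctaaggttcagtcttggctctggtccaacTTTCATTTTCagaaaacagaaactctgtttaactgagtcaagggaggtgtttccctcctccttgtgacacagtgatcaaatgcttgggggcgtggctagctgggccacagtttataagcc
Ifit1 holds 2 matches and Rsad2 holds 1. Whether a factor was bound there was not measured.

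Of the 19 interferon response genes, 18 lay below 0, 3 of them at an unadjusted p under 0.05, and the median log2 fold change was -0.80. Over all genes, 54.6% lay below 0 and 3.53% were at that p on the lower side. Ifit1, which binds viral RNA, read 8.89 and 9.64 in spontaneous tumors 2 and 3 but 7.28 and 7.18 in spontaneous tumors 1 and 4. It ran from 6.37 through 7.14 to 7.65 in treated tumors, and control lung read 8.03 to 10.49 (-1.16 ± 0.46). Rsad2, an antiviral enzyme, split in the same way, at 9.30 and 9.74 against 7.63 and 6.96, with treated tumors at 5.99 to 7.65 (-1.19 ± 0.53). Irf7, the factor that amplifies the response, read 8.27 and 8.25 in spontaneous tumors 2 and 3 and 6.94 in each of the other 2, with treated tumors at 6.49 to 7.14 (-0.77 ± 0.29). The list's median deviation was 1.29 and 2.05 in spontaneous tumors 2 and 3, -0.67 and -0.49 in spontaneous tumors 1 and 4, and -1.18 to -0.12 in treated tumors. Spontaneous tumors 1 and 4 were thus within the range of the treated tumors, and the list median was -0.55, -0.37 and -1.24 without spontaneous tumor 2, 3 or 4.

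All 12 MHC class I genes and all 10 MHC class II genes lay below 0, with medians of -0.38 and -0.43. Without spontaneous tumor 3 these medians were -0.07 and -0.25, and without spontaneous tumor 1 that of class I was -0.58. Cd74, the chain that guides class II molecules, read 13.27, 13.98, 13.93 and 13.71 in spontaneous and 13.04 to 13.49 in treated tumors (-0.42 ± 0.16). T and NK cell genes moved with them, with 17 of 19 below 0, a median of -0.39 and median deviations of 0.79 and 0.64 in spontaneous tumors 2 and 3, -0.28 and -0.29 in spontaneous tumors 1 and 4 and -0.46 to 0.02 in treated tumors. Nkg7, a protein of killer cell granules, read 8.01 and 7.60 in spontaneous tumors 2 and 3 and 5.30 to 6.23 in the other 8 tumors (-0.97 ± 0.47), and Gzma, a granule protease, differed by -0.94 ± 0.33. Without spontaneous tumor 2 or 3 the median of the T and NK cell list was -0.20 or -0.24. The part of such cells in the interferon values was not tested. Tnfsf9, the ligand of the T cell receptor 4-1BB, was above control lung (5.20 to 5.89) in all tumors. It was highest in spontaneous tumors 3 and 2, at 10.55 and 10.18 (-0.85 ± 0.35).

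Among genes of type 2 inflammation, Chia1 and Retnla had the lowest log2 fold changes of this list, and Retnla the lowest of all genes. Chia1, an acidic chitinase, read 12.73, 11.32 and 11.53 in spontaneous tumors 2, 3 and 4, 7.50 in spontaneous tumor 1, and 6.72 through 7.41 to 8.52 in treated tumors, with control lung at 8.61 to 10.14. Retnla, a resistin-like protein of macrophages and airway epithelium, read 12.90, 11.05 and 12.18 against 6.90, with treated tumors at 6.28 through 7.59 to 8.11 and control lung at 8.39 to 12.71. The differences were -3.27 ± 0.84 and -3.33 ± 0.96 (limma adjusted p = 0.472 and 0.554). Without spontaneous tumor 1 they were -4.36 and -4.61 (limma adjusted p = 0.0196 and 0.0179). Without spontaneous tumor 2 each was -2.61 (limma adjusted p = 0.94). Treated tumors and spontaneous tumor 1 were below every control lung in both genes. Chil4, a chitinase-like protein, differed by -1.13 ± 0.43. The 13 genes of this list had a median of -0.21, and of -0.09, -0.33 and -0.07 without spontaneous tumor 2, treated tumor 3 or treated tumor 4. Mcpt8, a protease of basophils, read 5.88 to 8.19 in treated and 5.12 to 5.72 in spontaneous tumors, highest in treated tumor 3 (1.17 ± 0.40). It was the only 1 of 10 mast cell, basophil and eosinophil genes at an unadjusted p under 0.05. Of these 10, 6 lay above 0 and 4 below, with a median of 0.04.

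**Figure D3:**
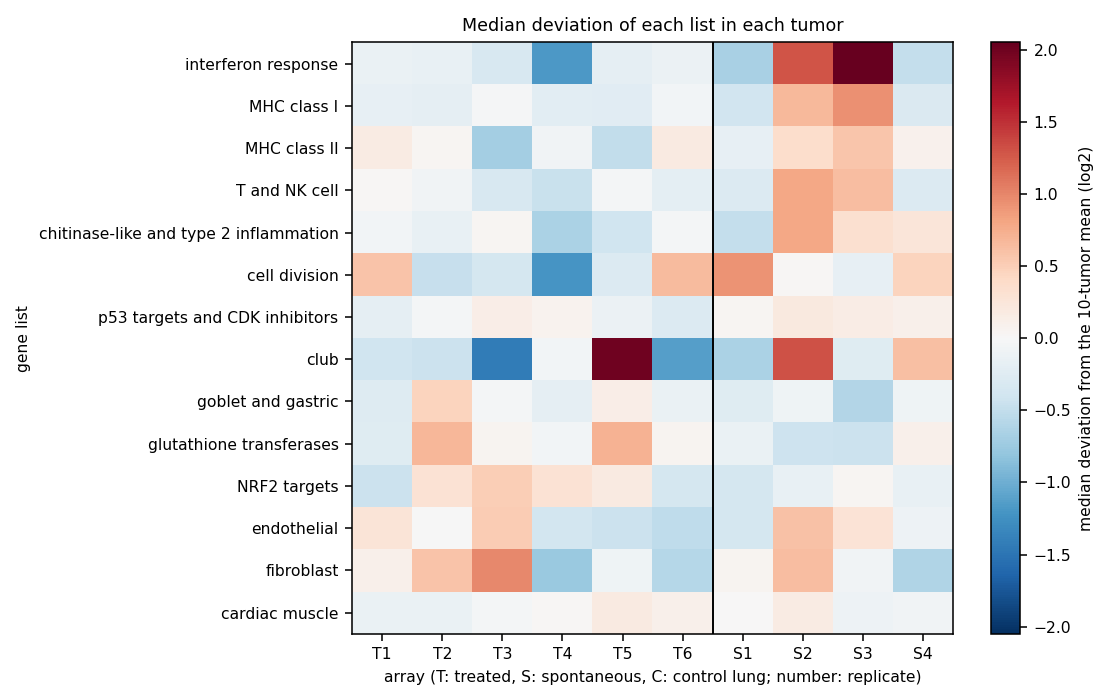
Median deviation (log2) of the members of 14 gene lists from their mean over the 10 tumors, with 1 column per array (T1 to T6 treated, S1 to S4 spontaneous) and red above and blue below that mean. The interferon and T and NK cell lists are red in S2 and S3 and not in S1 and S4, cell division is lowest in T4, and glutathione transferases are highest in T5 and T2.

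Stromal lists differed little: endothelial, fibroblast and collagen genes had medians of -0.26, -0.01 and -0.12. Without spontaneous tumor 2 the endothelial median was -0.08 and the collagen median -0.01. The endothelial list ran from -0.52 to 0.53 in treated and from -0.35 to 0.60 in spontaneous tumors. Of its 20 genes, 15 were higher in each control lung than in any tumor, as were 1388 of all 18193 genes. Col8a1, a short-chain collagen, differed by -1.27 ± 0.44 and Adamts1, a matrix protease, by -0.99 ± 0.27. Of the 16 matrix proteases and inhibitors, however, 12 lay above 0. The median of that list was 0.20, and -0.005 without spontaneous tumor 1. Clock genes followed single tumors: Npas2, a partner of the clock proteins, read 5.76 and 5.59 in spontaneous tumors 2 and 3 and 8.24 to 9.19 in the other 8 tumors (1.49 ± 0.67), while Dbp, which peaks at the opposite time of day, read 11.67 and 11.73 in these and 8.72 to 11.01 in the others (-1.15 ± 0.49). The time of day at which a tumor was taken is not given in the labels. Clock itself differed by 0.30 ± 0.14.

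Many genes varied widely between tumors of 1 group. The median standard deviation of a gene was 0.253 (log2) within treated, 0.242 within spontaneous tumors and 0.207 within control lung, and it exceeded 1 in 485, 398 and 209 genes. The 10 genes that varied most within treated tumors and the 10 within spontaneous tumors, 19 in all, are described here because of that spread. Sox2, a factor of airway progenitors, had the largest spread in treated tumors. It read 8.17 and 8.97 in treated tumors 1 and 5 and 2.29 to 2.72 in the other 4, and it read 7.20, 7.90 and 7.64 in spontaneous tumors 2, 3 and 4 and 2.77 in spontaneous tumor 1, against 8.04 to 9.38 in control lung. The tumors with Sox2 were those in which Scgb1a1 was highest. Bche, a cholinesterase, was high in treated tumors 2 and 5, at 9.43 and 9.85. Cldn6, an embryonic claudin, was high in these and in treated tumor 6 and spontaneous tumor 4, at 7.71, 9.84, 8.92 and 8.22, against 3.48 to 4.34 in the other 6 tumors. Apob, the apolipoprotein of liver and gut, read 12.29 and 10.59 in treated tumors 5 and 2 and 10.18 in spontaneous tumor 1, with control lung at 5.65 to 6.40. Igk and Jchain, which mark plasma cells, ran from 5.86 to 12.67 and from 3.83 to 10.34 in treated tumors and from 8.56 to 12.74 and 6.14 to 10.56 in spontaneous tumors. Cxcl5, a chemokine for neutrophils, ran from 3.16 in treated tumor 4 to 9.82 in treated tumor 6.

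Several of these genes, among them Lce3f, Lrrn1, Cltrn, Bpifa1 and Npy2r, had low values in normal lung and were high in some tumors of both groups. Lce3f, a late cornified envelope gene, read 3.59 to 4.49 in control lung, 12.17 and 12.92 in spontaneous tumors 1 and 4, 5.91 and 4.19 in spontaneous tumors 2 and 3, and 5.11 to 13.08 in treated tumors. Lrrn1 and Dsc2, a desmosomal cadherin, split the spontaneous tumors in the same 2 pairs (9.01 and 8.0 against 4.23 and 2.87, and 8.03 and 8.25 against 3.53 and 3.19). So did Cltrn, a transport protein, at 10.04 and 11.08 against 3.78 and 4.76, with all treated tumors at 8.24 to 12.03 and control lung at 2.48 to 2.79 (2.92 ± 1.43). Bpifa1, an airway defence protein, read 13.49 and 14.02 against 9.72 and 11.05. In Cxcl9, a chemokine induced by interferon, and Slc6a20a, an amino acid transporter, spontaneous tumors 2 and 3 were the high pair (9.05 and 9.81, and 9.26 and 9.51). Control lung was not low for Slc6a20a, at 7.34 to 8.16. Npy2r, a neuropeptide receptor, and Amph, an endocytic protein, were highest of the spontaneous tumors in number 1, at 9.85 and 9.34. Amph read 6.67 to 7.27 in control lung. Dcpp3 and Ralyl were high in spontaneous tumor 1 alone, at 12.67 and 8.80, against 5.71 to 6.35 and 2.63 to 4.27 in the other 9 tumors. No difference between the groups in these 19 genes had a limma adjusted p under 0.733, and their standard errors were 1.04 to 1.92.

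**Figure D4:**
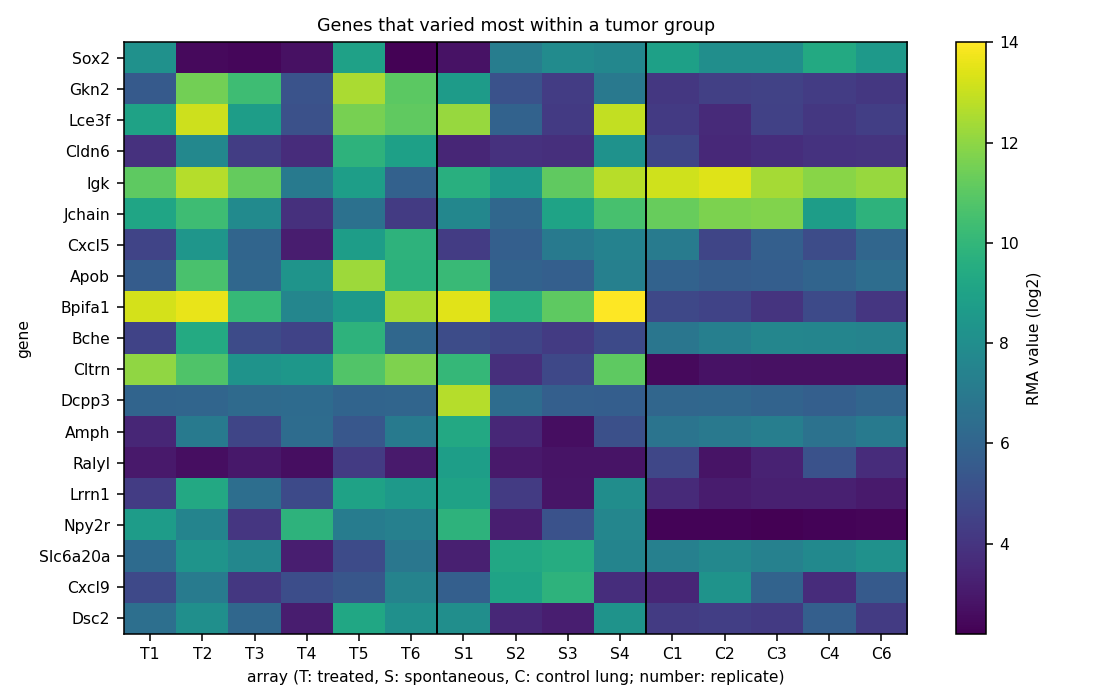
RMA values (log2, colour scale) of the 19 genes with the largest standard deviation within treated or within spontaneous tumors, with 1 column per array (T treated, S spontaneous, C control lung). S1 and S4 share high Lce3f, Lrrn1, Cltrn and Dsc2, S2 and S3 share low values of these, and Sox2 is high in T1, T5, S2, S3, S4 and all control lungs.

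Whole chromosomes shifted together in single tumors. For each array and chromosome, the median deviation of its genes from the 10-tumor mean was taken, after each array's median over all genes was subtracted. Among the 200 pairs of 20 chromosomes and 10 tumors, 30 deviated by at least 0.1 (log2), and in 29 of these all 6 parts of the chromosome, cut by gene order, lay on the same side of 0. In control lung, measured against the control mean, 0 of 100 pairs reached 0.1 and the largest was 0.03. Spontaneous tumor 1 held 9 of the 30, treated tumor 4 held 7 and treated tumor 5 held 6, while spontaneous tumor 3 and treated tumor 2 held 0. Chromosome 17 deviated by -0.201 in spontaneous tumor 1, with its 6 parts at -0.233 to -0.163, and 76.4% of its genes were below the tumor mean. Chromosome 4 deviated by -0.2 in treated tumor 6, with 81.4% of its genes below. Chromosome 8 deviated by 0.185 in spontaneous tumor 1, chromosome 11 by -0.173 in treated tumor 5 and chromosome 12 by 0.167, 0.134 and 0.127 in spontaneous tumor 1, treated tumor 4 and spontaneous tumor 4.

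Chromosome 7 was the one on which the groups differed most. The median log2 fold change of its 1420 genes was -0.127. At an unadjusted p under 0.05 there were 176 lower and 11 higher (13.2% of its genes, against 6.99% of all). Its median deviation was 0.091, 0.06, 0.039 and 0.097 in spontaneous tumors 1 to 4 and -0.143 to 0.049 in treated tumors, of which treated tumor 5 was the only one above 0. Its 6 parts had medians of -0.135 to -0.112, so the difference ran along the whole chromosome. Leaving out each tumor gave medians of -0.151 to -0.106. Of the 50 genes with the smallest p, 10 lay on chromosome 7, which holds 1420 of all 18193 genes. Mical2, Trim5, Vps33b and Cox6a2 were among the 10, with differences of -0.70 to -1.93, larger in size than the chromosome's median. Fxyd3, on the higher side, was among the 10 as well. Ccnd1, Napsa, Cyp2f2, Mki67, Plk1, Bbc3, Aen, Irf7, Nkg7 and Dbp, described above on the lower side, lie on it too. So do Muc5b and Lgals4, on the higher side. Chromosome 17 had a median of 0.079 and 85 genes higher against 14 lower at an unadjusted p under 0.05, but its median was 0.017 without spontaneous tumor 1. When each array was centred on the median of each chromosome, 0 genes were called by limma (1236 at an unadjusted p under 0.05). DNA was not measured, and the part of chromosome number in these values was not tested.

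**Figure D5:**
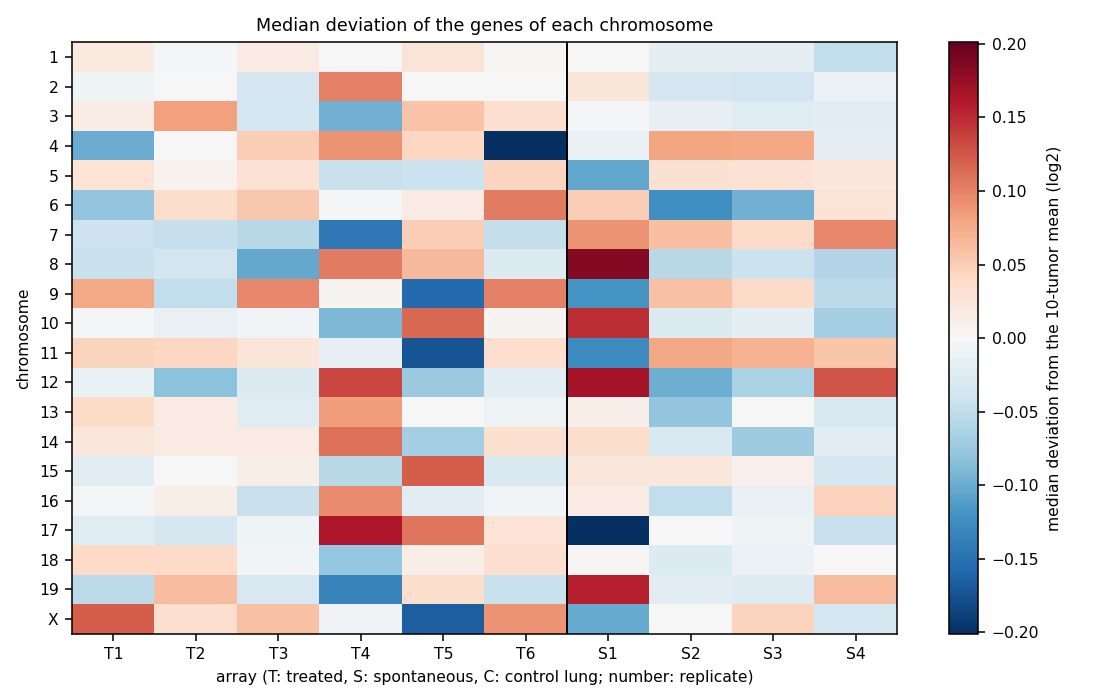
Median deviation (log2) of the genes of each chromosome from their mean over the 10 tumors, after subtraction of each array's median over all genes, with 1 row per chromosome and 1 column per array (T treated, S spontaneous). Chromosome 7 is above 0 in all 4 spontaneous tumors and below 0 in 5 of 6 treated tumors, and S1, T4 and T5 hold most of the strong shifts.

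The poor arrays were used as a check. Spontaneous tumors 5 and 6 read 9.03 and 8.69 for Tshr, 5.69 and 5.48 for Sugct and 6.96 and 7.27 for Pigr. The poor control array read 9.38, 4.56 and 5.59 for these genes, outside the range of the other control lungs in all 3, so the poor arrays were high for Tshr in both groups and their values bear on no difference here. For Fxyd3 they read 7.23 and 7.85, inside the treated range, and for Mical2 4.90 and 4.75, below every kept tumor. With both added, the limma fit over 12 tumors called 0 genes (929 at an unadjusted p under 0.05), and with array weights, which count such arrays less, it called 7 (0.0385%), namely Sugct, Abca5, Fxyd3, Myh7 and the lipase Liph on the higher side and Pigr and Tshr on the lower. Liph was chosen after its values were seen.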

How the data were processed

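RNA of dissected lung tumors and of normal lung was hybridised to Affymetrix arrays. Per the submitters' processing notes the deposited values come from RMA, whose version is not given in the sources used here. The authors deposited them on the log2 scale, and no depth belongs to them: the number of arrays limits the precision. Of 45101 probe sets, 34945 carried 1 gene symbol, and the one with the highest mean stood for each of 18193 genes. Treated and spontaneous tumors were compared over 10 arrays with limma 3.58.1 in R 4.3.3 (lmFit and eBayes, Benjamini-Hochberg adjustment), and a gene was called at an adjusted p under 0.05. The fit was tested on simulated data. The genes named are the 5 with the smallest p in each direction, up to 5 members with the smallest p from each list described, and the 10 with the largest SD within each tumor group. Cox6a2, Prxl2a, Sat2, Akr1c12, Liph, Myom2 and Actc1 were added after their values were seen. The comparison, the lists and the members were chosen with earlier results of these data known. Alternatives covered other scalings, filters, probe set rules, covariates, variance models, array sets, an exact permutation test and each tumor left out. Centring on chromosome medians was added after the data were seen. A list deviation is the median over members of value minus 10-tumor mean.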

Additional observations from a re-analysis of the deposited data

Results flagged for a closer look

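In 17 of 228 groups of values tested, covering the named genes in each tumor group, the highest or lowest tumor lay far from the rest by Dixon's criterion. For genes picked without regard to their spread, chance meets it in about 1 group of 20. Some named genes, Sox2, Cldn6, Dcpp3 and Ralyl among them, were picked for a large spread within a group, so that rate does not apply to them. Spontaneous tumor 1 accounted for 6 of the 17 and treated tumor 5 for 4. Spontaneous tumor 1 was low for Gsta4 (11.64, the others 12.06 to 12.13), Scgb1a1 (8.78, the others 13.18 to 13.63), Pigr (7.07, the others 8.72 to 8.93) and Sox2 (2.77, the others 7.20 to 7.90). It was high for Dcpp3 (12.67, the others 5.71 to 6.35) and Ralyl (8.80, the others 2.82 to 3.00). Treated tumor 5 was low for Meg3 (8.41, the others 11.72 to 12.71) and Abca5 (8.94, the others 9.52 to 9.80), and high for Ralyl (4.27, the others 2.63 to 3.04) and Akr1c12 (10.83, the others 7.90 to 8.78). Spontaneous tumor 2 was low for Rian (6.94, the others 11.88 to 12.74) and Meg3 (7.03, the others 11.72 to 12.54). Spontaneous tumor 4 was high for Cldn6 (8.22, the others 3.48 to 3.89) and Akr1c12 (7.62, the others 7.17 to 7.24). Treated tumor 4 was high for Nkx2-1 (9.98, the others 9.12 to 9.34) and low for Rsad2 (5.99, the others 7.27 to 7.65), and treated tumor 2 was high for Zmat3 (9.31, the others 8.74 to 8.95).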

How the results depend on the processing

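The count of called genes was 0 by limma. The exact permutation test also gave 0, but its smallest possible p of 0.00476 left little room for a call. By limma the count was 10 with control lung, which varied less than the tumors, in the fit. It was 7 with 12 tumors and array weights, and 1 with every probe set tested (of 34945). Leaving out 1 tumor gave 0 to 3. It was 0 under the other alternatives run, with 149 (among genes that differ at least 2-fold) to 2082 genes at an unadjusted p under 0.05. Same-numbered treated and spontaneous tumors had correlations of -0.106, -0.151, 0.298 and -0.041 between their deviations. Tumors with different numbers had -0.355 to 0.371. The labels do not say whether equal numbers pair samples, and so few correlations cannot decide it. A limma fit with the replicate number as a block called 0 genes (1091 at an unadjusted p under 0.05). With all 12 tumors, poor arrays included, the median difference over all genes (log2) moved from -0.02 to 0.09 and 20 of 114 named genes changed sign: Ephx1 (0.11), Slc39a8 (0.32), Ccnd1 (0.12), Napsa (0.65), Nkx2-1 (0.03), Ube2c (0.24), Ccng1 (1.31), Zmat3 (0.31), Fasn (0.06), Elovl1 (0.48), Scd1 (0.01), Acaca (1.18), Pmvk (0.05), Cd74 (0.15), Nectin2 (0.92), Nrarp (0.00), Dbp (0.44), Adamts1 (0.48), Mical2 (1.35) and Amph (-0.05). The sign also changed for Cxcl5 with the replicate block (-0.56) and for Ralyl with the actin covariate (0.02). Leaving out 1 tumor changed it for Rian (-0.30 to 1.63), Mirg (-0.44 to 1.20), Meg3 (-0.69 to 1.24), Lce3f (-0.54 to 2.37), Dcpp3 (-2.15 to 0.17), Amph (-0.31 to 1.92), Ralyl (-1.79 to 0.20), Lrrn1 (-0.00 to 2.04) and Npy2r (-0.09 to 2.13). The other genes of the 114 kept their direction under every alternative in which they were tested with 1 value per gene. Of the 54 with several probe sets, 9 had probe sets on both sides of 0. Myom2 and Actc1 were not among the 114. The cause of these changes was not tested.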
